A study of Mus musculus with 2 samples.

Results

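Mir132, Mir212, Mir137, Mir153 and Mir488 are 5 microRNA genes described as enriched in neurons, each named without a numbered copy in the mouse annotation. They were chosen by symbol from 2202 annotated microRNA genes, and all 5 matched a gene in the count tables. Their levels were measured by microRNA-seq of total RNA from tissue labelled as a layer of hippocampus, from female mice of the strain B6CASTF1/J, a first-generation cross of C57BL/6J with a CAST strain, at 10 days of age. The series holds 1 group of 2 biological replicates, with no treatment or mutant, and each label names a set of 3 females, so values per animal were not measured. Replicate 2 held 3563226 sense-strand counts on microRNA genes and replicate 1 held 5479267, of which these 5 genes took 46836 and 72401. Small RNA below 30 nt was sequenced, and levels are sense counts of a gene per 1000000 sense counts on all microRNA genes (CPM). A read of that size covers a mature form, so CPM was not divided by hairpin length, and a difference in CPM between genes is a difference in reads.

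A microRNA is cut from a hairpin in a longer transcript, and 1 arm of the hairpin is then loaded into an Argonaute protein. Bases 2 to 8 of the loaded arm, the seed, pair with sites in messenger RNAs, which lowers their translation and stability. Mir132 and Mir212 are made from a shared transcript that the factor CREB switches on when neurons are active. miR-132 promotes the growth of dendrites and spines in rodent hippocampal neurons, miR-137 restrains neuronal maturation and its human locus is associated with schizophrenia, and miR-153 represses alpha-synuclein and other proteins of vesicle release. Neither neuron enrichment nor a response to activity was measured here, since the libraries are of tissue RNA from a single group. In such bulk tissue, fewer cells of a type and less RNA per cell cannot be told apart.

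Which mature forms the counts stand for is shown by the sequences below, from RefSeq on GRCm38.p6, the assembly also called mm10, written 5′ to 3′ with the seed in capitals. All 5 genes and 10 mature forms matched. The gene counts add both arms of a hairpin, so the arms were not measured apart.
miR-132-5p: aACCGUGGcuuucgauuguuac
miR-132-3p: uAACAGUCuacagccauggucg
miR-212-5p: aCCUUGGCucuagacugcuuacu
miR-212-3p: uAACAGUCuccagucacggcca
miR-137-5p: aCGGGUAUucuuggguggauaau
miR-137-3p: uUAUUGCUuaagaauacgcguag
miR-153-5p: gUCAUUUUugugacguugcagcu
miR-153-3p: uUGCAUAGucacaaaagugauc
miR-488-5p: cCCAGAUAauagcacucucaa
miR-488-3p: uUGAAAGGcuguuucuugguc

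The 3p forms of Mir132 and Mir212 carry the same seed, and it was found in no other of the 1738 mature entries of that table. Each of the 8 remaining mature forms had a seed that no other entry shared. In an ungapped comparison, miR-132-3p and miR-212-3p were the same at 17 of 22 bases, the first 9 included. They differed by A10C, C14U, U17C, U20C and G22A, with the miR-132-3p base first, its position counted from 1 at the 5′ end, and then the miR-212-3p base. All 5 differences lie outside the seed.

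The genes lie at 4 loci, all on the plus strand of GRCm38 (mm10) in GENCODE M21. Mir212 (ENSMUSG00000065590.1, chromosome 11, 75173388 to 75173478) and Mir132 (ENSMUSG00000065537.2, chromosome 11, 75173682 to 75173747) are 203 bp apart. Both lie in the first intron of the 3-exon non-coding gene 1700016P03Rik, 828 and 1122 bp from its start. Mir137 (ENSMUSG00000065569.2, chromosome 3, 118433857 to 118433929) lies in exons of all 3 annotated transcripts of the non-coding gene Gm26871. Mir153 (ENSMUSG00000065538.1, chromosome 12, 117250817 to 117250885) is intronic to Ptprn2, which encodes a membrane protein of dense-core vesicles. Mir488 (ENSMUSG00000070103.2, chromosome 1, 158505625 to 158505733) is intronic to Astn1, which encodes a neuronal protein used in migration along glia. The introns of Mir153 and Mir488 are also covered on the opposite strand by the antisense genes Gm5441 and Gm37679, but no microRNA gene is annotated opposite any of the 5. Sense and antisense reads were counted apart, and antisense counts were 0 and 1 for Mir132, 1 and 0 for Mir488 and 0 and 0 for the other members in replicates 2 and 1.

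**Figure D1:**
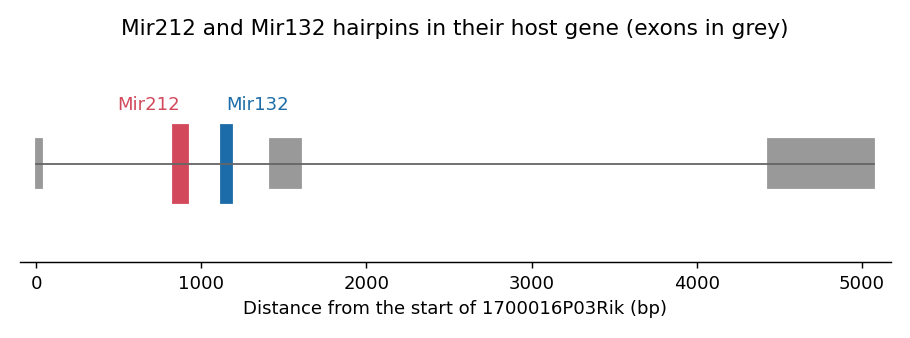
Map of the non-coding gene 1700016P03Rik, with distance from its start in bp on the horizontal axis, exons in grey, Mir212 in red and Mir132 in blue. Both hairpins lie in the first intron, 828 and 1122 bp from the start.

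The hairpins of the Mir212 and Mir132 pair are printed because the comparison of their levels rests on them. Capitals mark the 5p and 3p mature forms, and the positions are chr11:75173388-75173478 and chr11:75173682-75173747, plus strand.
Mir212 hairpin: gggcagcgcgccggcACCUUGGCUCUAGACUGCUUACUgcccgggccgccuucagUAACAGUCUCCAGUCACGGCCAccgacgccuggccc
Mir132 hairpin: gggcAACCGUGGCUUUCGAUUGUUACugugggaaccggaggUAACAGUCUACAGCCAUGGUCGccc

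The Mir212 hairpin was 69.2% G and C and the Mir132 hairpin 57.6%, against 45.2% for Mir137, 42.2% for Mir488, 42.0% for Mir153 and a median of 51.7% over 1005 mouse hairpins. Folding energy predicted with RNAfold, per base, ran from -0.36 kcal/mol for Mir488 to -0.56 kcal/mol for Mir132, around a median of -0.41 kcal/mol over all hairpins. The longest stretch that any of the 5 hairpins shared with another microRNA gene, on either strand, was 10 to 12 nt. That is shorter than a mature form. An exact copy of the 10 mature forms was found in no annotated transcript other than their own gene and, for Mir137, its host Gm26871. The transcripts were searched in spliced form, so introns were not covered. Copies in introns or outside annotated genes were not searched, since no genome sequence was used here.

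All 5 genes were detected, with at least 10 sense counts in each library, while 429 of the 2202 genes met that minimum. Together they held 1.31% of the counts in replicate 2 (exact Clopper-Pearson 95% interval 1.30 to 1.33%) and 1.32% in replicate 1 (1.31 to 1.33%). The summed share was 1.318% ± 0.00490 (SD, n = 2), and the intervals of the libraries overlapped. That overlap is for shares of library totals, without the scaling used for the ratios below. The sum hid different levels and changes in opposite directions between the libraries. Mir132 made up 57.4% of the 5 genes' counts in replicate 2 and 64.4% in replicate 1, and Mir137 made up 35.3% and 29.5%. Mir488 and Mir212 gave a few percent each, and Mir153 gave 0.581% and 0.0801%.

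Mir132, the activity-driven microRNA of dendrite growth, had 26885 counts in replicate 2 and 46653 in replicate 1. These are levels of 7545 and 8514 CPM, with a mean of 8030 ± 685 CPM (SD, n = 2), and rank 27 of the 2202 genes. The SD was 8.54% of the mean, the smallest relative spread of the 5 in CPM. With the scaling used for the ratios below, Mir137 differed less between the libraries, at a log2 ratio of 0.19 against -0.24 for Mir132. The genes next to Mir132 in level were Mir126a, a microRNA of endothelium, at 8144 ± 224 CPM and Mir187 at 7879 ± 1494 CPM. These differ from Mir132 by less than its spread, so its rank among them was not resolved.

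Mir137, known for holding back neuronal maturation, had 16543 counts in replicate 2 and 21391 in replicate 1. The levels were 4643 and 3904 CPM, with a mean of 4273 ± 522 CPM (SD, n = 2) and rank 44. Mir132 was 1.63-fold higher than Mir137 in replicate 2 and 2.18-fold higher in replicate 1, and their levels did not overlap. The neighbours in level were Mir361 at 4385 ± 13.3 CPM and Mir676 at 4032 ± 667 CPM. The predicted gene Gm24155, 791 bp from Mir137 on the same strand, had 3 counts in each library.

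Mir488, within Astn1, had 1232 counts in replicate 2 and 2735 in replicate 1. The levels were 346 and 499 CPM, with a mean of 422 ± 108 CPM (SD, n = 2) and rank 148. Mir212 had 1904 counts in replicate 2 and 1564 in replicate 1, levels of 534 and 285 CPM, and a mean of 410 ± 176 CPM (SD, n = 2) at rank 151. The order of these genes was not resolved: Mir488 was below Mir212 in replicate 2, at 0.647 of its level, and 1.75-fold above it in replicate 1. Mir350, at 424 ± 98.3 CPM, and Gm23450, at 421 ± 36.4 CPM, stood next to Mir488, and Mir1981, at 411 ± 6.44 CPM, and Mir375, at 402 ± 22.6 CPM, next to Mir212.

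Mir153, which represses alpha-synuclein, was the lowest of the 5 in reads assigned to a gene. Reads with more than 1 match entered no count. Copies of its mature forms in introns or outside annotated genes were not searched, so its level holds for assigned reads only. Replicate 2 gave 272 counts and replicate 1 gave 58, levels of 76.3 CPM (exact 95% interval 67.5 to 86.0) and 10.6 CPM (8.04 to 13.7). The mean of 43.5 ± 46.5 CPM (SD, n = 2) has an SD above the mean itself. By mean level the gene ranked 250, and by library it ranked 223 in replicate 2 and 322 in replicate 1. Its libraries did not overlap in their counting intervals, and neither did those of any other member. Mir212 was 7.0-fold above Mir153 in replicate 2 and 27.0-fold above it in replicate 1. Mir1968, at 47.0 ± 1.74 CPM, and Mir670, at 43.4 ± 6.90 CPM, stood next to it by mean level.

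**Figure D2:**
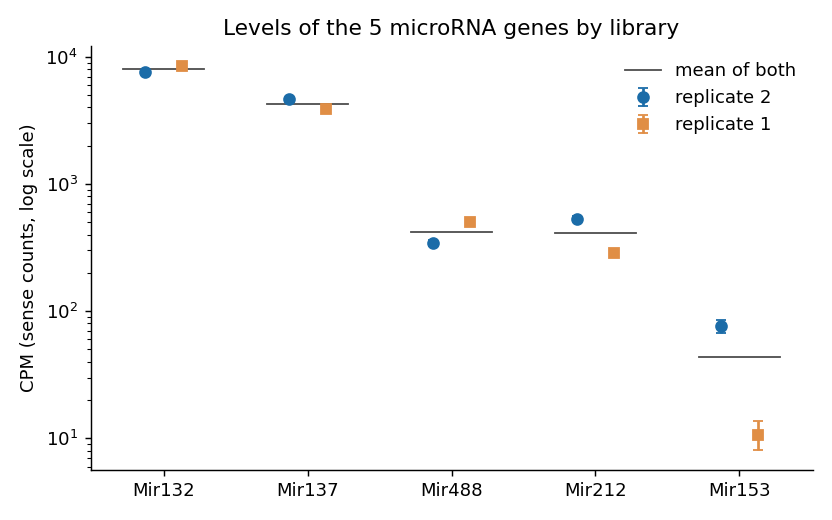
Level of each gene in CPM on a log axis, with replicate 2 as circles, replicate 1 as squares, exact 95% counting intervals as bars (often smaller than the symbol) and the mean as a line. Mir132 and Mir137 stand near 8030 and 4273 CPM, Mir488 and Mir212 cross over between the libraries, and Mir153 lies apart in them at 76.3 and 10.6 CPM.

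**Figure D3:**
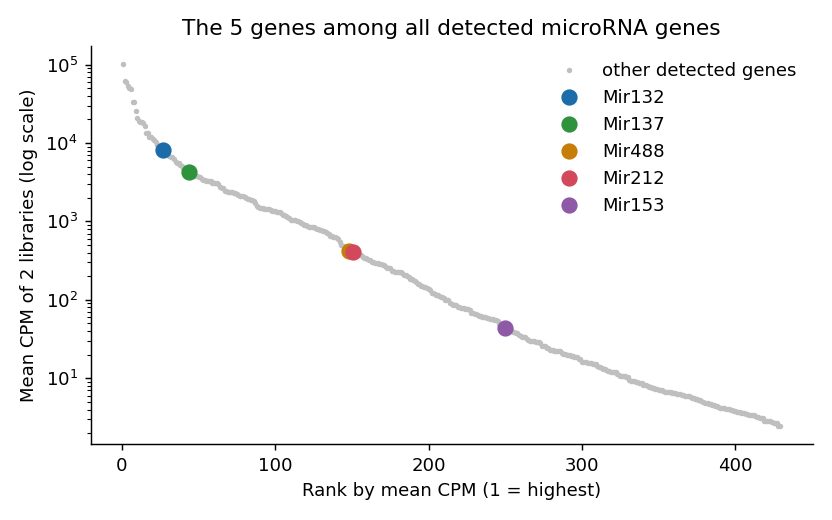
Mean CPM of the 2 libraries on a log axis against rank for the 429 detected genes, with the 5 genes coloured. They spread from rank 27 for Mir132 to rank 250 for Mir153.

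With 2 libraries of 1 group, the pattern of a gene across samples is its ratio between them, so no search for genes of like pattern was made. Single genes whose ratios are set beside Mir212 or Mir153 further below were picked after their values were seen. The ratios below are replicate 2 over replicate 1 after scaling with TMM factors of edgeR, with 0.5 counts added. A two-sided exact binomial test, Benjamini-Hochberg adjusted over all detected genes at 0.05, asked whether a ratio exceeds counting error. It compares these libraries, not conditions, and it does not cover the spread between animals. All 5 members passed, 3 higher and 2 lower in replicate 2, against 61.3% of all detected genes, made up of 28.7% higher and 32.6% lower in replicate 2. Passing depends on depth: with a minimum of 100 counts in each library, 220 of 267 genes passed. All members except Mir153 met that minimum. 1 of the 5, Mir153, differed at least 2-fold, against 12.1% of detected genes. The median absolute log2 ratio was 0.59 for the 5 and 0.33 for all detected genes.

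Mir132 and Mir137 differed least. The log2 ratio was -0.24 for Mir132 (exact 95% counting interval -0.26 to -0.21; exact binomial test, adjusted p = 2.88e-102) and 0.19 for Mir137 (0.16 to 0.22; adjusted p = 2.48e-35). Among the 76 genes averaging 10000 counts or more, where the median absolute log2 ratio was 0.24, Mir132 was number 38 in size and Mir137 number 45. Scaled by the 14 numbered-copy neuron genes, an alternative chosen after seeing the data, Mir137 turned to -0.063 (exact binomial test, adjusted p = 4.73e-05), which makes 2 members higher and 3 lower in replicate 2; its other alternatives gave 0.14 to 0.25. Mir488 had a log2 ratio of -0.59 (interval -0.69 to -0.49; exact binomial test, adjusted p = 1.13e-33) and Mir212 one of 0.84 (0.75 to 0.94; adjusted p = 4.10e-65). Among the 106 genes with a mean count from 1000 to 10000, where the median absolute log2 ratio was 0.27, Mir212 was number 19 in size and Mir488 number 28.

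Mir153 had a log2 ratio of 2.78 (exact 95% counting interval 2.37 to 3.22; exact binomial test, adjusted p = 2.47e-54), a 6.86-fold higher level in replicate 2. Among the 102 genes with a mean count from 100 to 1000 it had the second largest absolute ratio, where the median was 0.35. The value rests on 58 counts in replicate 1, and even the lower end of its interval is above 2-fold.

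**Figure D4:**
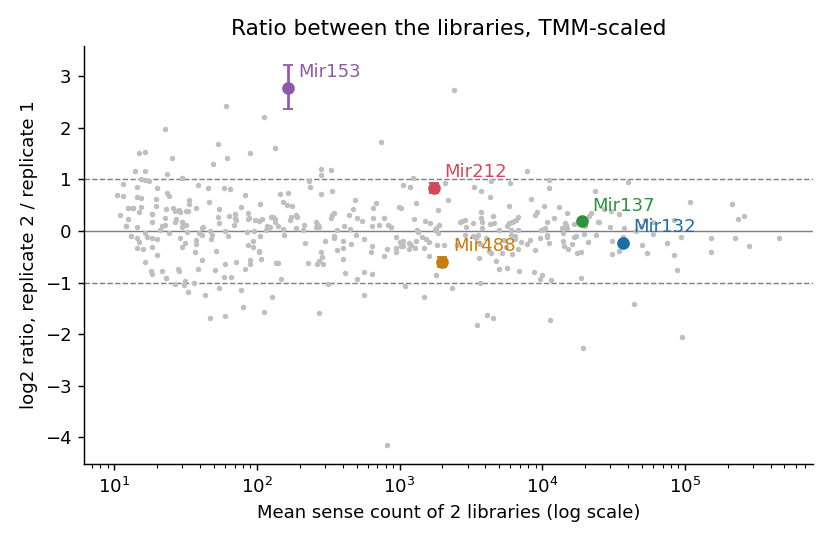
Log2 ratio of replicate 2 to replicate 1 against mean sense count (log axis) for the 429 detected genes in grey and the 5 genes in colour, with exact 95% counting intervals as bars and 2-fold as dashed lines. Mir153, at 2.78, is the only coloured point beyond the dashed lines.

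Mir212 and Mir132 lie on 1 transcript, and their ratio within a library, like that of any 2 genes, does not depend on how the libraries are scaled. Mir212 made up 6.61% of the pair's 28789 counts in replicate 2 (exact 95% interval 6.33 to 6.91%) and 3.24% of 48217 in replicate 1 (3.09 to 3.41%), a mean of 4.93% ± 2.38 (SD, n = 2). With both arms counted together, Mir132 was 14.1-fold above Mir212 in replicate 2 and 29.8-fold above it in replicate 1. The odds of a Mir212 read were 2.11-fold higher in replicate 2 (two-sided Fisher's exact test on reads of the 2 libraries, p = 1.28e-101). Summed over the pair, the libraries held 8079 CPM (replicate 2) and 8800 CPM (replicate 1).

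The shift within the Mir212 and Mir132 pair was set beside that of other neighbours. The log2 ratios of the pair differed by 1.08. Among 64 pairs of detected genes next to each other on a strand within 1 kb, the absolute difference ran from 0.01 to 2.12 with a median of 0.32, and this pair was number 11 in size. Among the 32 pairs in which both genes had a mean of at least 1000 counts, the median was 0.57 and the pair was number 6. Neighbouring pairs share clusters and are not independent, and these positions are a description.

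**Figure D5:**
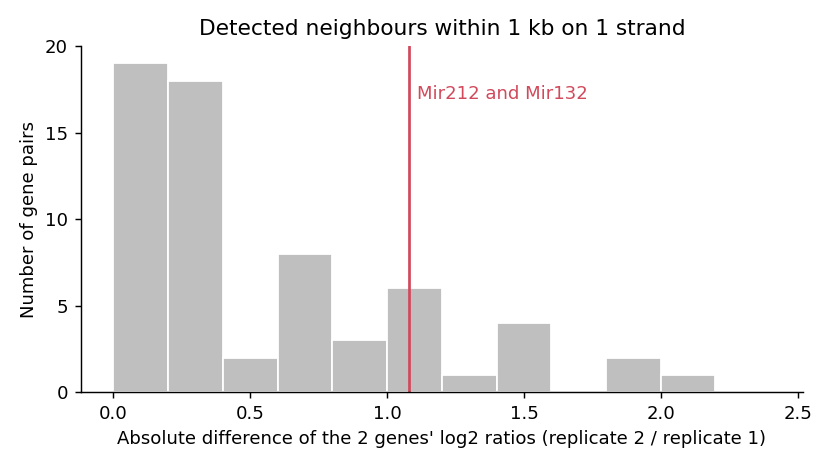
Number of neighbouring gene pairs (detected, within 1 kb on 1 strand, 64 pairs) by the absolute difference of their log2 ratios between the libraries. The red line marks Mir212 and Mir132 at 1.08, beyond the median of 0.32 and below the highest value of 2.12.

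Other neuronal microRNAs give the setting for these levels. A list of 14 neuron-enriched genes with numbered copies held 1.95% of the counts in replicate 2 and 1.57% in replicate 1, or 1.76% ± 0.270 (SD, n = 2), and 12 of the 14 were detected. It was led by Mir128-1 at 6638 ± 435 CPM, Mir138-1 at 5024 ± 1029 CPM, Mir128-2 at 2397 ± 62.7 CPM, Mir138-2 at 1937 ± 636 CPM and Mir129-2 at 1041 ± 507 CPM. Mir132 stood above Mir128-1 in both libraries, at 7545 and 8514 CPM against 6945 and 6330 CPM. The 5 single-locus genes held 40.2% of the counts of both lists together in replicate 2 and 45.6% in replicate 1. Copies of a numbered gene have stretches in common, and reads with more than 1 match were not assigned to a gene, so the comparison holds for assigned reads only. In the binomial test, 7 of the 12 were higher and 3 lower in replicate 2, against 28.7% and 32.6% of all detected genes, and their median log2 ratio was 0.22, beside 0.04 for all detected genes.

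A further list of 6 microRNAs described as responding to neuronal activity was detected in full and held 0.608% ± 0.0255 of the counts (SD, n = 2). Mir485 stood at 2043 ± 375 CPM, Mir134, which limits spine size through Limk1, at 1466 ± 209 CPM, Mir381 at 1034 ± 181 CPM, Mir188 at 805 ± 77.3 CPM and Mir329 at 721 ± 14.5 CPM. Mir184 was far lower, at 13.2 ± 0.363 CPM. Mir132 alone had more counts than the 6 together, at 7545 and 8514 CPM against 6261 and 5900 CPM in replicates 2 and 1. In the binomial test, 2 of the 6 were higher and 3 lower in replicate 2, against the same 28.7% and 32.6% of detected genes, and none differed 2-fold, where 12.1% of detected genes did.

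Marker lists of other cell types are given for the tissue as a whole, and not every listed marker was detected. In replicates 2 and 1, the summed level was 11138 and 11756 CPM for 3 endothelial and vessel wall genes, 3283 and 3432 CPM for 2 choroid plexus and ependyma genes, 2041 and 1563 CPM for 3 oligodendrocyte genes, 145 and 138 CPM for 3 microglia and blood lineage genes and 64.3 and 55.5 CPM for 3 red cell genes. The muscle genes were at 97.4 and 40.2 CPM, nearly all from Mir206, as Mir133b had 1 and 0 counts. The muscle sum thus describes Mir206, and the presence of muscle cells was not tested. The muscle sum was higher in replicate 2, as Mir212 and Mir153 were. So was the oligodendrocyte sum, through Mir219a-2 alone at a log2 ratio of 0.65, while Mir338 and Mir219a-1 had -0.08 and -0.26. The microglia and blood lineage sum was also higher, through Mir142 at 0.74, while Mir155 and Mir223 had -0.20 and -0.60. The red cell sum was higher too, though none of its genes passed the binomial test. The endothelial and choroid plexus sums were lower in replicate 2. All 3 endothelial and vessel wall genes were lower, but the choroid plexus and ependyma genes split, with Mir449a at -0.37 and Mir204 at 0.20. The part of any of these cell types in the ratios of Mir212 and Mir153 was not tested. The defining neuronal copies of Mir124 and Mir9 were at 0.877 to 58.3 CPM by mean, and reads of near-identical copies are not in these counts.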

How the data were processed

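MicroRNA-seq was made from 2 hippocampus libraries of 1 group. Each library has its own file of deposited raw counts per gene, unstranded and per strand. The notes beside the files name mm10 as the build and GENCODE M21 as the annotation. No aligner, counter or filter is named: each is not given in the sources used here. The strand column with the larger total was taken as sense. In replicates 2 and 1, 39.3% and 43.2% of reads had more than 1 match in the genome and entered no gene count. The 4 rows without a gene were left out. Alleles of the hybrid were not separated.

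Libraries were scaled with TMM (edgeR 4.0.16; factors 1.02 and 0.979), tested in Python 3.11.15 with scipy 1.17.1, and DESeq2 1.42.0 gave other size factors. Sequences are from RefSeq (GRCm38.p6), folded with RNAfold 2.7.2. The binomial test was run on simulated counts with counting error only. That simulation does not cover the larger spread between these libraries. The libraries were no copies of each other (chi-square per detected gene, 518). Intervals hold for counting error alone, as PCR copies of a molecule cannot be told from separate molecules. The labels call the samples biological replicates under a shared donor entry.

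Named genes are the 5 members, the genes next to each in mean level, genes sharing a seed, a position within 10 kb or the opposite strand, the 5 highest numbered-copy neuron genes and all 6 activity genes. The cell type marker lists are given as sums. Gm5441, Gm37679, single markers of those lists, the other numbered-copy neuron genes, Mir448 and Mir6335 fall outside this rule and were named after their values or annotation were seen. The members and lists were chosen with earlier results of these data known.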

Additional observations from a re-analysis of the deposited data

How the results depend on the processing

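The summed share of the 5 genes was 0.487% with all reads as the denominator, 2.57% with the 10 most abundant genes left out of the total and 1.40% in counts without regard to strand; each alternative changes the denominator by construction. With 2 libraries, leaving 1 out gives the other's value and is no test of stability. The summed share was then 1.32% and 1.31%, and the Mir212 percent of the pair 3.24% without replicate 2, over 1.5 times below its mean of 4.93%, and 6.61% without replicate 1. For Mir153, the mean of 43.5 CPM became 10.6 CPM without replicate 2 and 76.3 CPM without replicate 1, a move of over 1.5 times. With a minimum of 100 counts, 4 of the 5 were detected, Mir153 falling below it in replicate 1.

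With DESeq2 size factors, library totals, counts without regard to strand or 5 counts added, the ratio of each of the 5 genes kept its direction and stayed past the threshold. The number of genes called was 262 and 260 under the first 2 of these, against 263, each of 429 tested, and 245 of 406 without regard to strand. It was 286 of 670 tested with a minimum of 1 count in each library and 220 of 267 with a minimum of 100. The part of the calls that lay higher in replicate 2 was 42.7% under DESeq2 size factors, 52.7% under library totals and 46.8% under TMM. Scaling by the 14 numbered-copy neuron genes, chosen after seeing the data, turned the log2 ratio of Mir137 to -0.063 and left the other 4 directions as they were, with Mir153 at 2.53. No paired analysis was possible because the series has a single group. Depth limits Mir153 most, with 58 counts in replicate 1.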

Other observations

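Mir448, a microRNA of the serotonin receptor gene Htr2c, makes a 3p form that shares bases 2 to 7 but not base 8 with miR-153-3p. It was chosen after its values were seen. Replicate 2 gave 402 counts and replicate 1 gave 477, or 113 and 87.1 CPM, a mean of 99.9 ± 18.2 CPM (SD, n = 2). Mir448 was above Mir153 in both libraries, at 113 against 76.3 CPM in replicate 2 and at 87.1 against 10.6 CPM in replicate 1. Mir6335, whose mature form shares the same 6 bases, had 0 counts in both libraries. At these depths that limits reads with a unique place to 0.842 CPM (replicate 2) and 0.548 CPM (replicate 1).

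The numbered copies Mir129-1 and Mir129-2, which share a name and lie at separate loci, had log2 ratios of 0.85 and 0.97 between the libraries, close to the 0.84 of Mir212. Mir138-1 and Mir138-2 had 0.36 and 0.62. Other copies went other ways: Mir128-1 and Mir128-2 had 0.07 and -0.12, Mir218-2 and Mir218-1 had 0.46 and -0.39, and Mir9-1, Mir9-3 and Mir9-2 had -1.48, -0.58 and -0.13. Of the Mir124 copies, Mir124a-1 alone was detected, at 1.52. Mir132, at -0.24, was lower in replicate 2 than in replicate 1. These are values of the same 2 libraries and were picked after they were seen.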
